A study of Gallus gallus with 25 samples.

Results

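The Z chromosome of the chicken (Gallus gallus, wild type) carried 352 of the 5602 contact domains listed in 4 pooled Hi-C maps of growing oocytes. Its members were taken by chromosome name alone: 72 of 1132 domains in the post-LBC type 1 map, 91 of 1546 in the LBC type 1 map, 85 of 1342 in the post-LBC type 2 map and 104 of 1582 in the LBC type 2 map, each over 28 chromosomes. The lampbrush (LBC) oocytes were 1 to 2 mm in diameter and the post-LBC oocytes, which are later in diplotene, 4 to 7 mm, and nuclei were isolated one by one before single-nucleus Hi-C, which records pairs of DNA fragments that lie close together in 1 nucleus. The post-LBC type 1 map pools 4 nuclei, the LBC type 1 map 14, the post-LBC type 2 map rests on 1 nucleus and the LBC type 2 map pools 6. The types are not treatments: nuclei were called type 2 after sequencing, for a higher share of contacts between chromosomes than type 1 nuclei had. Whether type 2 is another stage of growth or includes material of a somatic cell was not tested here, so the type 2 lists are given beside those of type 1 and not pooled with them.

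A contact domain is a stretch of chromosome whose loci contact each other more often than they contact the flanking chromatin, and a boundary is the edge of such a stretch. In the lampbrush phase of meiotic prophase the paired homologues are long, transcription is very high, and the axis is a row of compact chromomeres from which transcribed lateral loops extend. Later in diplotene, transcription declines and the chromosomes shorten. The hen is the heterogametic sex, so her oocyte holds a single Z, while every autosome has a homologue. The W, the partner of Z, shares only a small pseudoautosomal region with it. The far part of the long arm of chicken Z is known for heterochromatin made of tandem repeats.

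Each group is represented by 1 list made from 1 pooled map, with a start and an end for each domain and no score. There is therefore no replicate of any map, no test was made, and no difference below has been set against a spread between nuclei. Intervals in brackets are 95% intervals (exact order-statistic intervals for medians, Wilson intervals for shares) that cover only the finite number of domains or boundaries. Neighbouring boundaries and maps of a chromosome are not independent. The lists do not give the number of contacts behind a boundary, on Z or elsewhere. Domains are given on the ASM2420605v2 assembly, lie on a 16 kb grid and are all longer than 200 kb. Chromosomes 4 and 5, on which domains span 91.1 and 59.3 Mb against 86.9 Mb on Z, served as the background.

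The domains spanned nearly the same part of Z in all 4 maps. The first one started at 496001 in every map. The last one ended at 87392000 in the post-LBC type 1 map, at 87376000 in the LBC type 1 map, at 87344000 in the post-LBC type 2 map and at 87392000 in the LBC type 2 map. Domains covered 75.2, 74.9, 73.6 and 74.98 Mb of this span in the same order of maps. The largest stretch without a listed domain was found in all 4 maps toward the end with the highest coordinates: chrZ:74944001-83856000 (8.91 Mb) in the post-LBC type 1 map, chrZ:74944001-83840000 (8.90 Mb) in both LBC maps and chrZ:74944001-83888000 (8.94 Mb) in the post-LBC type 2 map. Beyond it, from 3 to 4 domains were listed in each map. Smaller gaps differed more. There were 13 gaps in the post-LBC type 1 map, 15 in the LBC type 1 map, 27 in the post-LBC type 2 map and 12 in the LBC type 2 map. Of the 15 gaps of the LBC type 1 map, 5 were present in all 4 maps with both ends within 80 kb, namely the large one, chrZ:85488001-86272000 (784 kb, the second longest), chrZ:9104001-9296000, chrZ:28272001-28560000 and chrZ:35584001-35776000. The third longest gap of that map, chrZ:11440001-11808000 (368 kb), was present in 3 maps. A gap means only that no domain over 200 kb was listed there.

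Z domains were long. The median Z domain measured 1064 kb (896 to 1120) in the post-LBC type 1 map and 832 kb (656 to 928) in the LBC type 1 map. It measured 864 kb (704 to 992) in the post-LBC type 2 map and 680 kb (624 to 752) in the LBC type 2 map. On chromosomes 4 and 5 together, the medians were 832 kb (768 to 912), 576 kb (544 to 624), 640 kb (608 to 688) and 568 kb (544 to 608) in the same order of maps. The ratio of the Z median to that of chromosomes 4 and 5 was thus 1.28 in the post-LBC type 1 map, 1.44 in the LBC type 1 map, 1.35 in the post-LBC type 2 map and 1.20 in the LBC type 2 map. The intervals of Z and of chromosomes 4 and 5 did not overlap in 3 maps and overlapped in the post-LBC type 1 map. Among the 28 chromosomes, Z had the highest median in both type 1 maps, followed by chromosome 10 with 992 kb in the post-LBC map and by chromosome 1 with 704 kb in the LBC map. In the type 2 maps it ranked 4th (post-LBC) and 5th (LBC), behind small chromosomes such as 24 and 23.

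**Figure D1:**
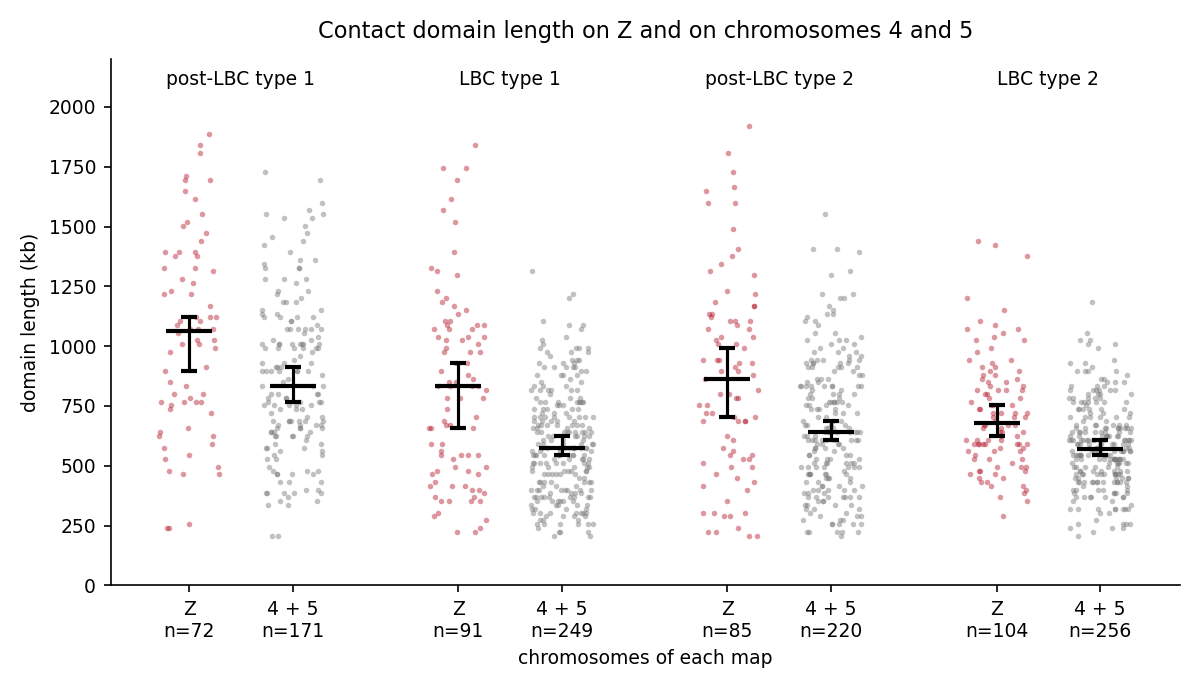
Length in kb (vertical axis, from 0) of every domain on Z (red) and on chromosomes 4 and 5 (grey) in the 4 maps; bars are medians with 95% order-statistic intervals, and n is the number of domains. The Z median lies above that of chromosomes 4 and 5 in each map, at 1064 against 832 kb in the post-LBC type 1 map and 832 against 576 kb in the LBC type 1 map.

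The difference was most visible among long domains. Domains over 1000 kb made up 41 of 72 Z domains (56.9%, 45.4 to 67.7) in the post-LBC type 1 map, 31 of 91 (34.1%, 25.2 to 44.3) in the LBC type 1 map, 32 of 85 (37.6%, 28.1 to 48.3) in the post-LBC type 2 map and 13 of 104 (12.5%, 7.45 to 20.2) in the LBC type 2 map. On chromosomes 4 and 5 these shares were 35.1%, 4.02%, 11.8% and 2.34% in the same order. Over all chromosomes other than Z they were 34.5%, 8.59%, 18.3% and 4.26%. In the LBC type 1 map the share was 12.4% on chromosomes 1 to 5 together, so that chromosomes 4 and 5 were a low background there. Short domains were present on Z as well, and 25 of the 91 in the LBC type 1 map (27.5%) were under 500 kb. In the same order of maps, domains under 500 kb made up 9.72%, 27.5%, 21.2% and 18.3% on Z. On chromosomes 4 and 5 these shares were 14.6%, 36.5%, 31.8% and 33.2%. Over all chromosomes they were 14.5%, 35.6%, 28.3% and 29.3%, so that short domains were less frequent on Z in each map. The Z lengths ranged from 240 to 1888 kb in the post-LBC type 1 map, from 224 to 1840 kb in the LBC type 1 map, from 208 to 1920 kb in the post-LBC type 2 map and from 288 to 1440 kb in the LBC type 2 map.

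The longest Z domain lay in different places, except that those of both LBC maps overlapped. It was chrZ:2384001-4272000 in the post-LBC type 1 map and chrZ:63072001-64912000 in the LBC type 1 map. In the post-LBC type 2 map it was chrZ:16736001-18656000. In the LBC type 2 map it was chrZ:62752001-64192000. The shortest Z domains included chrZ:14080001-14320000 in the post-LBC type 1 map, chrZ:54688001-54912000 in the LBC type 1 map, chrZ:43872001-44080000 in the post-LBC type 2 map and chrZ:26800001-27088000 in the LBC type 2 map. The first domain of Z, which begins at the same base in all maps, was 800 kb long in the post-LBC type 1 map, 928 kb in the LBC type 1 map, 416 kb in the post-LBC type 2 map and 608 kb in the LBC type 2 map. At the other end, the last domain was 1120, 1104, 1040 and 448 kb long in the same order.

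Between stages, Z domains were longer and fewer in the post-LBC maps of the automatic lists. In type 1 the median was 1.28 times as high in the post-LBC map as in the LBC map, with 72 against 91 domains, a decrease of 20.9% in number. On chromosomes 4 and 5 the same ratio was 1.44 with 171 against 249 domains, and over all chromosomes other than Z it was 1.43. Z ranked 22nd of the 28 chromosomes by this ratio. In type 2 the ratio was 1.27 on Z, with 85 against 104 domains, against 1.13 on chromosomes 4 and 5 and 1.13 over all chromosomes other than Z. The stage ratio of Z was therefore below the background in type 1 and above it in type 2. For Z the intervals of the post-LBC and LBC medians overlapped in both types. Set against the 46 LBC type 1 domains on Z that the authors refined by eye, the ratio was 0.704 and the direction was reversed. That ratio sets an automatic post-LBC list against a refined LBC list, so it is not a comparison of stages alone. On chromosomes 4 and 5 the refined LBC type 1 median, 1192 kb, was likewise above the automatic post-LBC type 1 median of 832 kb.

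Along Z, median length was taken in 10 Mb windows by the position of each domain's middle, window 1 being the first 10 Mb. In the post-LBC type 1 map the medians of windows 1 to 9 were 1032, 1144, 1072, 1032, 784, 1216, 872, 1176 and 1120 kb. In the LBC type 1 map they were 832, 864, 656, 848, 1008, 832, 832, 656 and 1088 kb. The post-LBC median was the higher in 8 of the 9 windows of type 1, and window 5 (40 to 50 Mb) was the exception, against 9 of 10 windows on chromosome 4 and 6 of 6 on chromosome 5. Each of the first 7 windows held from 8 to 15 domains in these 2 maps, while windows 8 and 9, which the large gap cuts into, held from 3 to 7.

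In the post-LBC type 2 map the medians of windows 1 to 9 were 656, 1072, 1080, 704, 832, 912, 800, 864 and 1040 kb. In the LBC type 2 map they were 752, 720, 672, 768, 672, 624, 720, 624 and 584 kb. The post-LBC median was the higher in 7 of the 9 windows, all but windows 1 and 4, against 6 of 10 on chromosome 4 and 6 of 6 on chromosome 5. The number of windows with a longer post-LBC median was thus not particular to Z. Windows 2, 3, 6 and 8 showed a post-LBC median at least 1.32 times the LBC median in both types. In window 3 the ratio was 1.63 in type 1 and 1.61 in type 2.

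**Figure D2:**
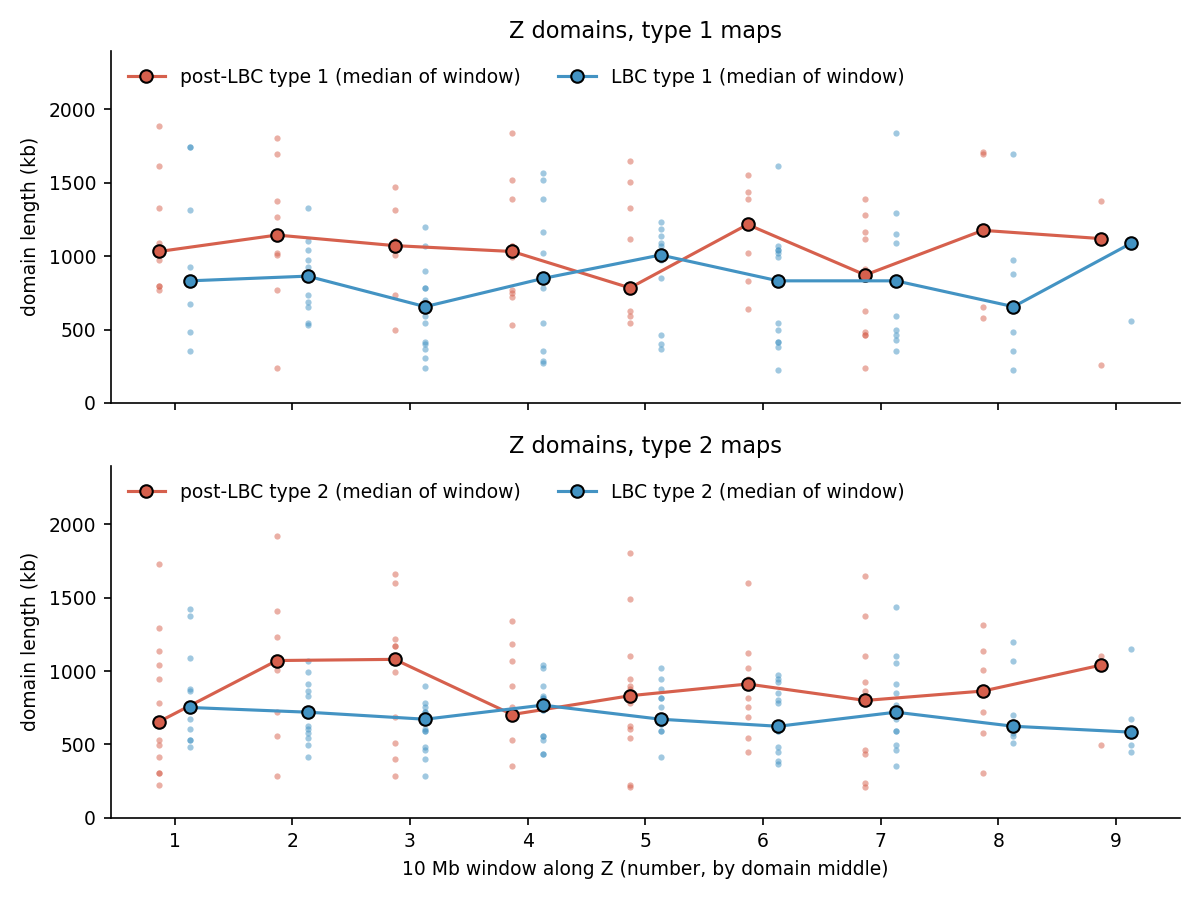
Length in kb of Z domains (small points) and their median (large joined points) in each 10 Mb window along Z, numbered from 1, for the post-LBC map (red) and the LBC map (blue) of type 1 (top) and type 2 (bottom). The post-LBC median is the higher in 8 windows of type 1 and in 7 of type 2; window 5 of type 1 shows the reverse, with 784 kb post-LBC and 1008 kb LBC.

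Among windows with at least 5 domains, the highest Z median was 1.55 times the lowest in the post-LBC type 1 map (window 6 over window 5), 1.54 times in the LBC type 1 map (window 5 over windows 3 and 8, which tied), 1.65 times in the post-LBC type 2 map (window 3 over window 1) and 1.23 times in the LBC type 2 map (window 4 over windows 6 and 8, which tied). On chromosome 4 these ratios were 1.55, 1.89, 1.48 and 1.39 in the same order of maps, and on chromosome 5 they were 1.24, 1.45, 1.14 and 1.19. The ratios of Z lay within the range of these 2 autosomes in the LBC type 1 and LBC type 2 maps. They were level with chromosome 4 in the post-LBC type 1 map and above both autosomes in the post-LBC type 2 map. They depended on the window, and with 5 Mb windows they were 1.87, 2.50, 2.30 and 1.78 on Z in the same order of maps. The windows with the extreme medians changed from map to map, and windows 3, 5 and 6 were each the highest in 1 map and the lowest or tied lowest in another. Window 5 had the lowest median of the post-LBC type 1 map and the highest of the LBC type 1 map. Its 9 post-LBC type 1 domains ran from 544 to 1648 kb, and its 11 LBC type 1 domains from 368 to 1232 kb, so that the ranges overlapped widely.

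Boundaries were compared by position. A boundary of 1 map was called kept in another map when that map had a boundary within 80 kb (5 bins of the grid), lost when an LBC boundary had none in the post-LBC map, and gained when a post-LBC boundary had none in the LBC map. In type 1, 48 of the 86 post-LBC boundaries of Z (55.8%, 45.3 to 65.8) had an LBC counterpart, against 148 of 183 on chromosomes 4 and 5 (80.9%, 74.6 to 85.9) and 75.3% over all 28 chromosomes. The intervals of Z and of chromosomes 4 and 5 did not overlap. Z had the lowest share of the 28 chromosomes, followed by chromosome 2 with 64.2% and chromosome 1 with 65.4%. The other 38 Z boundaries (44.2%) were gained, against 35 of 183 (19.1%) on chromosomes 4 and 5.

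In the other direction, 47 of the 107 LBC type 1 boundaries of Z (43.9%, 34.9 to 53.4) were kept in the post-LBC type 1 map, against 148 of 265 on chromosomes 4 and 5 (55.8%, 49.8 to 61.7) and 54.9% over all chromosomes. The remaining 60 (56.1%) were lost on Z, against 117 (44.2%) on chromosomes 4 and 5. Here the intervals overlapped, and only chromosome 21, with 43.8%, had a lower share than Z. Since Z has longer domains, its boundaries also leave less sequence near them. Of the bases in post-LBC type 1 domains of Z, 19.7% lay within 80 kb of an LBC type 1 boundary, against 27.0% on chromosomes 4 and 5. Boundaries lie only on the 16 kb grid and a match at exactly 80 kb counts. Such a share of bases is thus somewhat low as a comparison value, on Z and elsewhere. The share of boundaries kept was 2.84 times this share of bases on Z and 2.99 times on chromosomes 4 and 5. Because a share has an upper limit, this ratio has a lower ceiling where more bases lie near, as on chromosomes 4 and 5. The closeness of the ratios therefore does not show that the contrast between the chromosomes is small.

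**Figure D3:**
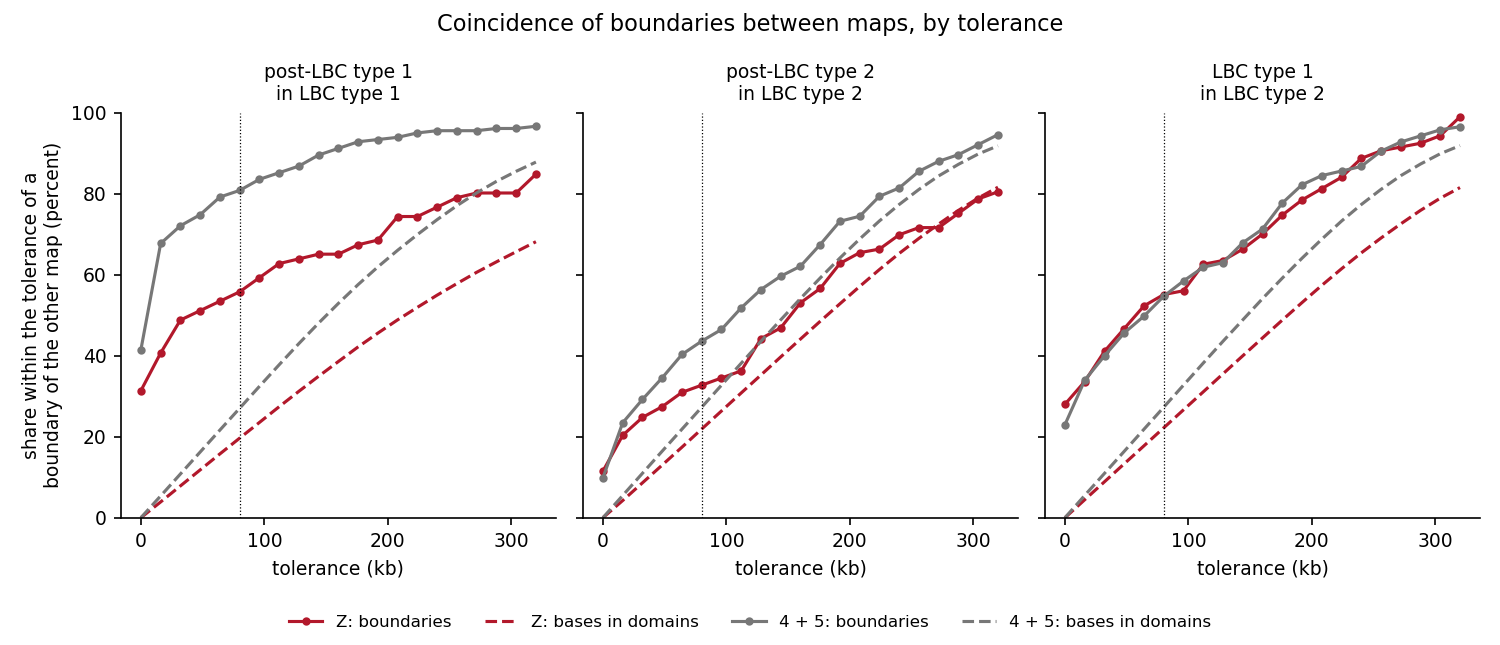
Share (percent, vertical axis) of boundaries of 1 map that lie within a given distance (kb, horizontal axis) of a boundary of another map, for Z (red) and chromosomes 4 and 5 (grey), with the share of bases in domains that lie as near (dashed); the dotted line marks 80 kb. At 80 kb the shares are 55.8% on Z and 80.9% on chromosomes 4 and 5 for post-LBC type 1 in LBC type 1, 32.7% and 43.6% for post-LBC type 2 in LBC type 2, and 55.1% and 54.7% for LBC type 1 in LBC type 2.

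In type 2, where the post-LBC map rests on 1 nucleus, smaller shares of boundaries were kept on Z, on chromosomes 4 and 5 and over all chromosomes. On Z 37 of the 113 post-LBC boundaries (32.7%, 24.8 to 41.8) had an LBC counterpart, against 106 of 243 on chromosomes 4 and 5 (43.6%, 37.5 to 49.9) and 44.5% over all chromosomes. Conversely, 33 of the 117 LBC type 2 boundaries of Z (28.2%, 20.8 to 36.9) were kept in the post-LBC map, against 105 of 270 on chromosomes 4 and 5 (38.9%, 33.3 to 44.8) and 39.7% over all chromosomes. Z had the lowest share of the 28 chromosomes in both directions. The intervals of Z and of chromosomes 4 and 5 overlapped in both directions of type 2.

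The contrast depended on which boundaries were counted. Of the 86 post-LBC type 1 boundaries of Z, 28 bordered a gap or were outermost, and 26 of these 28 (92.9%, 77.4 to 98.0) had an LBC counterpart, against 21 of 24 (87.5%, 69.0 to 95.7) on chromosomes 4 and 5. When only borders shared by 2 abutting domains were taken, 22 of 58 post-LBC type 1 borders on Z (37.9%, 26.6 to 50.8) had an LBC counterpart, against 127 of 159 on chromosomes 4 and 5 (79.9%, 73.0 to 85.4). The share of such LBC type 1 borders kept in the post-LBC map was 23 of 75 on Z (30.7%, 21.4 to 41.8) and 125 of 233 on chromosomes 4 and 5 (53.6%, 47.2 to 59.9). In both directions the intervals did not overlap, and the shares on Z were 1.93 and 1.98 times the shares of bases within 80 kb, against 2.95 and 2.92 times on chromosomes 4 and 5. Among 28 chromosomes, Z was 2nd from the lowest in the first direction, after chromosome 27 with 33.3%, and the lowest in the second. Next above Z were chromosome 24 with 57.1% in the first direction and chromosome 21 with 33.3% in the second. Chromosomes 4 and 5 were a high background in the first direction. With all boundaries counted they kept 80.9% there, against 75.3% over all chromosomes. For abutting borders alone the share over all chromosomes is not given here. How much of the contrast belongs to the choice of background is therefore not shown. In type 2, 10 of 57 post-LBC borders of Z (17.5%, 9.82 to 29.4) had a counterpart. The share of bases within 80 kb of an LBC type 2 boundary was 21.9%, which is higher but lies inside that interval. On chromosomes 4 and 5, 77 of 197 such borders (39.1%, 32.5 to 46.0) had a counterpart, with 27.3% of bases as near. Z had the lowest share of 27 chromosomes in this direction of type 2, followed by chromosomes 24 and 28 with 25.0% each. For LBC type 2 borders in the post-LBC type 2 map it was 3rd from the lowest of 28, with 17.6%.

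Between the 2 LBC maps, Z was not among the lowest chromosomes when all boundaries were counted. Of the LBC type 1 boundaries of Z, 59 of 107 (55.1%, 45.7 to 64.2) had a counterpart in the LBC type 2 map, against 145 of 265 on chromosomes 4 and 5 (54.7%, 48.7 to 60.6) and 53.0% over all chromosomes. In reverse, 60 of 117 LBC type 2 boundaries of Z (51.3%, 42.3 to 60.1) were found in the LBC type 1 map, against 146 of 270 on chromosomes 4 and 5 (54.1%, 48.1 to 59.9) and 52.7% over all chromosomes. Z was 13th from the lowest of 28 chromosomes in the first direction and 8th in the second. By borders of abutting domains alone, Z was 13th (46.7%) and 5th (40.7%) from the lowest. Its LBC type 1 boundaries were thus found in the LBC type 2 map about as often as those of the background, and more of them were found there (59) than in the post-LBC type 1 map (47), whereas on chromosomes 4 and 5 the numbers were 145 and 148. The LBC type 2 map has more boundaries than the post-LBC type 1 map in both sets. The numbers are 117 against 86 on Z and 270 against 183 on chromosomes 4 and 5.

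Between the post-LBC maps, 41 of 86 type 1 boundaries of Z (47.7%, 37.4 to 58.1) had a type 2 counterpart, against 113 of 183 on chromosomes 4 and 5 (61.7%, 54.5 to 68.5) and 59.9% over all chromosomes. In reverse, 44 of 113 (38.9%, 30.5 to 48.1) were found on Z, against 113 of 243 on chromosomes 4 and 5 (46.5%, 40.3 to 52.8) and 49.1% over all chromosomes. The share was lower on Z in both directions, and the intervals overlapped in both. As between stages, Z stood low among the 28 chromosomes here, 2nd from the lowest in the first direction and lowest in the second.

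**Figure D4:**
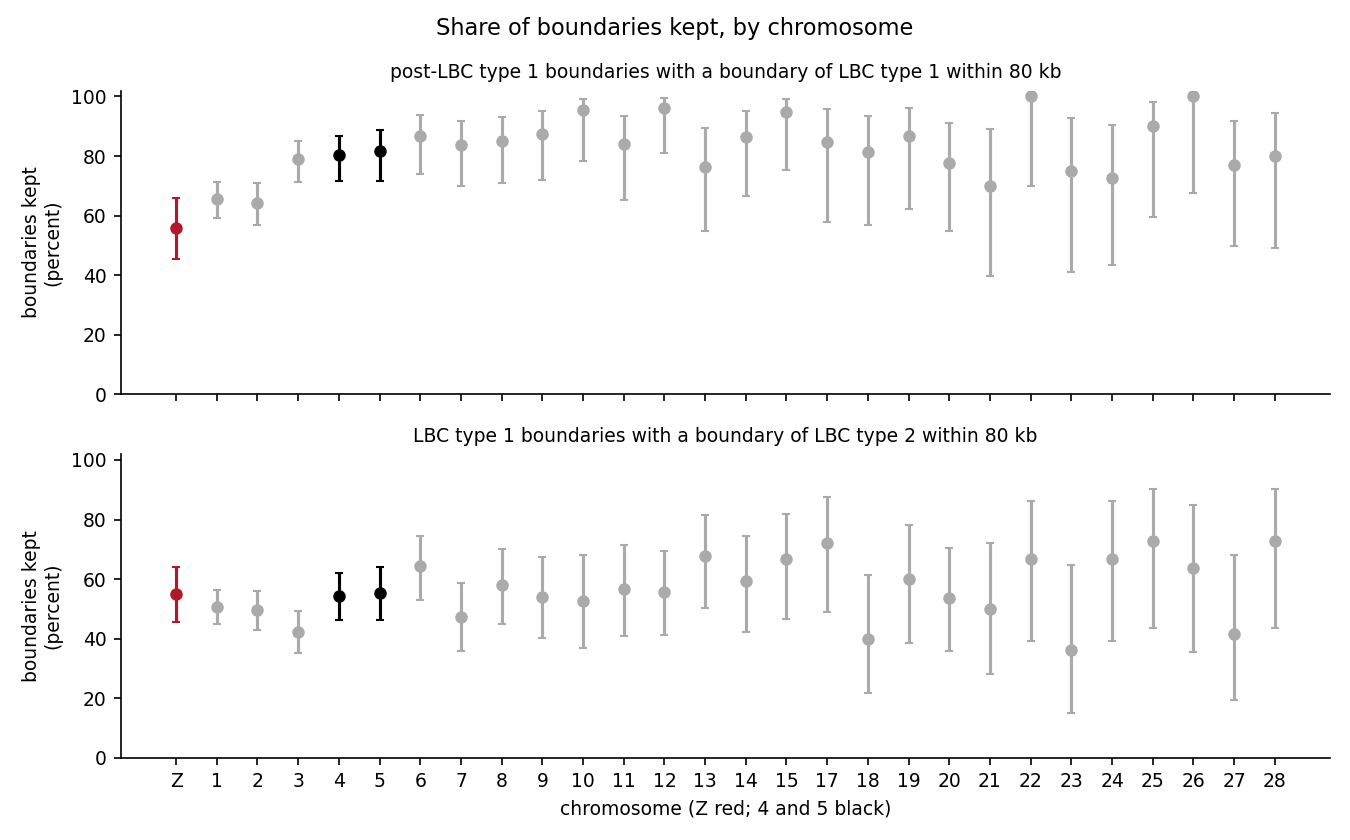
Share of boundaries (percent, with 95% Wilson intervals) that have a boundary of the second map within 80 kb, for Z (red), chromosomes 4 and 5 (black) and the other 25 chromosomes (grey). Z is the lowest of the chromosomes, at 55.8%, for post-LBC type 1 boundaries in the LBC type 1 map (top) and lies at 55.1%, inside the range of the others, for LBC type 1 boundaries in the LBC type 2 map (bottom).

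Where a Z boundary was kept, it was often kept to the bin, mostly at a gap. Of the 48 kept post-LBC type 1 boundaries, 27 (56.2%) lay in the same 16 kb bin as the LBC type 1 boundary, against 76 of 148 (51.4%) on chromosomes 4 and 5. Most of the 27 on Z bordered a gap or were outermost, while most of the 76 lay between abutting domains. These shares thus compare different kinds of boundary and do not describe the borders between abutting domains on Z. The gained type 1 boundaries of Z, however, lay farther from any LBC type 1 boundary than those of the background. Their median distance to the nearest one was 256 kb (quartiles 180 and 392 kb) on Z and 160 kb (128 and 232 kb) on chromosomes 4 and 5. Over all chromosomes it was 192 kb (128 and 320 kb). Only 8 of the 38 gained on Z (21.1%) had an LBC type 1 boundary within 160 kb, against 19 of the 35 (54.3%) on chromosomes 4 and 5 and 38.7% over all chromosomes. Widening the tolerance to 160 kb accordingly gave 65.1% kept on Z and 91.3% on chromosomes 4 and 5. LBC type 1 domains were longer on Z, with a median of 832 against 576 kb, and whether the distances follow from this was not tested. For the lost type 1 boundaries the order was the other way, with medians of 344 kb on Z and 368 kb on chromosomes 4 and 5. The post-LBC type 1 domains, against which these were measured, were also longer on Z, with a median of 1064 against 832 kb. The gained type 2 boundaries had medians of 232 and 192 kb, with 30.3% and 32.8% of them within 160 kb.

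The type 2 maps offer a second look at the boundaries that differed in type 1. Of the 47 LBC type 1 boundaries of Z that were kept, 33 (70.2%, 56.0 to 81.3) were also in the LBC type 2 map and 27 (57.4%, 43.3 to 70.5) in the post-LBC type 2 map. On chromosomes 4 and 5 these shares were 60.8% and 66.2%, and over all chromosomes 60.1% and 64.7%. The order of the maps was thus the other way in the background, and the intervals on Z overlapped. Of the 60 that were lost, 26 (43.3%, 31.6 to 55.9) were in the LBC type 2 map and 8 (13.3%, 6.91 to 24.2) in the post-LBC type 2 map. On chromosomes 4 and 5, 55 of the 117 lost boundaries (47.0%) were in the LBC type 2 map and 28 (23.9%) in the post-LBC type 2 map. Over all chromosomes these shares were 44.4% and 26.7%. The boundaries of Z that the post-LBC type 1 map lacked were therefore found in the other LBC map more often than in the other post-LBC map, as were those of the background. Of the 38 gained Z boundaries, 11 were in the LBC type 2 map, 12 in the post-LBC type 2 map and 22 (57.9%, 42.2 to 72.1) in at least 1 of the 2, against 21 of 35 on chromosomes 4 and 5 and 60.6% over all chromosomes.

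The kept share was also counted by window. Of the post-LBC type 1 boundaries, 4 of 10 were kept in window 1, 6 of 11 in window 2, 7 of 11 in window 3, 5 of 10 in window 4, 2 of 10 in window 5, 7 of 10 in window 6, 9 of 14 in window 7 and 4 of 5 in each of windows 8 and 9. On chromosome 4 the shares of its 10 windows ran from 7 of 12 to 12 of 12, and on chromosome 5 those of 6 windows ran from 8 of 11 to 15 of 17. With 5 to 14 boundaries to a window on Z, each share is imprecise. Window 5, the one in which the order of the medians was the reverse of the rest, thus had the lowest share, and the windows around the large gap had the highest. The windows differ in the kind of boundary counted. In window 9 all kept boundaries bordered a gap or were outermost, and the border between abutting domains, at 85232000, was not kept. Most kept boundaries of window 8 lay between abutting domains, and window 5 had no boundary at a gap. In type 2 the lowest share on Z was that of window 2, with 1 of 11, and the lowest on chromosome 4 was 4 of 17.

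Few boundaries were common to all maps, on Z as on chromosomes 4 and 5 and over all chromosomes. Counted from the LBC type 1 map, 22 of 107 (20.6%, 14.0 to 29.2) had a counterpart in each of the other 3 maps, against 62 of 265 on chromosomes 4 and 5 (23.4%, 18.7 to 28.9) and 23.4% over all chromosomes. Counted from the post-LBC type 1 map, 22 of 86 (25.6%, 17.5 to 35.7) did, against 60 of 183 (32.8%, 26.4 to 39.9) on chromosomes 4 and 5 and 32.1% over all chromosomes. Of the 22 common LBC type 1 boundaries of Z, 15 bordered a gap or were outermost and 7 lay between abutting domains. On chromosomes 4 and 5, 16 of the 62 bordered a gap or were outermost and 46 lay between abutting domains, and over all chromosomes 175 of 400 bordered a gap or were outermost. Z had more boundaries of that kind to begin with, 32 of its 107, against 32 of 265 on chromosomes 4 and 5. Of those boundaries, 15 of 32 were common to all maps on Z and 16 of 32 on chromosomes 4 and 5, while of the borders between abutting domains 7 of 75 were common on Z and 46 of 233 on chromosomes 4 and 5.

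The 7 internal positions of the LBC type 1 map were 14000000, 54688000, 56496000, 58112000, 65808000, 72032000 and 72608000 on Z. They made up 9.33% (4.59 to 18.0) of its 75 abutting borders on Z, against 18.5% on chromosome 4 and 21.4% on chromosome 5. The boundary at 54688000 was at exactly this base in all 4 maps. The one at 14000000 was the loosest of the set, at 14080000 in the post-LBC type 1 map, 14048000 in the post-LBC type 2 map and 13920000 in the LBC type 2 map. Of the 7, 6 lay in windows 6, 7 and 8.

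**Figure D5:**
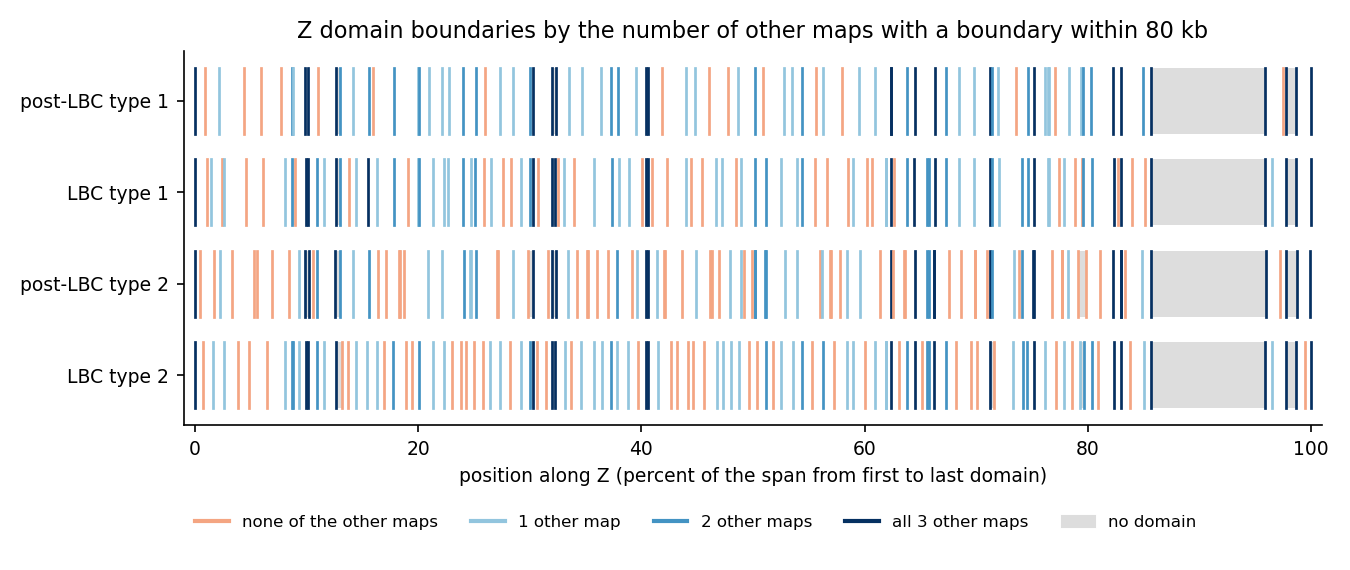
Domain boundaries of Z (vertical ticks) in the 4 maps, by position as percent of the span from the first to the last domain and coloured by the number of other maps with a boundary within 80 kb; grey blocks hold no listed domain. Boundaries found in all maps cluster at the gaps and toward the right end, and none lies in the 18.9 Mb stretch in the middle of the plot.

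The longest stretch of Z without a common boundary was chrZ:35776001-54688000, 18.9 Mb, and the next was chrZ:14000001-26800000, 12.8 Mb. The third, chrZ:74944001-83840000, is the large gap itself, which holds no boundary in any map. The longest such stretch was 14.6 Mb on chromosome 4 and 7.98 Mb on chromosome 5. Inside the 18.9 Mb stretch lay 16 boundaries of the post-LBC type 1 map, 22 of the LBC type 1 map, 26 of the post-LBC type 2 map and 26 of the LBC type 2 map, so that domains were called there in each map and differed in place. In it 3 of 16 post-LBC type 1 boundaries had an LBC type 1 counterpart, against 45 of 70 on the rest of Z, and 8 of 22 LBC type 1 boundaries had an LBC type 2 counterpart, against 51 of 85 on the rest of Z. The stretch was picked for its lack of common boundaries, so these lower shares describe it and are not evidence of their own.

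Whole domains recurred less often than single boundaries. A post-LBC domain with both ends within 80 kb of the ends of 1 LBC domain was found for 12 of 72 Z domains in type 1 (16.7%, 9.80 to 26.9), against 68 of 171 (39.8%, 32.7 to 47.3) on chromosomes 4 and 5 and 382 of 1132 (33.7%) over all chromosomes. In type 2 it was 4 of 85 on Z (4.71%, 1.85 to 11.5), against 21 of 220 (9.55%, 6.33 to 14.2) on chromosomes 4 and 5 and 160 of 1342 (11.9%) over all chromosomes. No Z domain of the LBC type 1 map recurred as such in all 4 maps (0 of 91, upper Wilson limit 4.05%), against 4 of 249 (1.61%) on chromosomes 4 and 5 and 40 of 1546 (2.59%) over all chromosomes. The nearest case was the terminal domain chrZ:86272001-87376000, whose 2 ends were found in all maps. It was 1 domain of 1120 kb in the post-LBC type 1 map, 1104 kb in the LBC type 1 map and 1040 kb in the post-LBC type 2 map, and was divided in the LBC type 2 map.

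Neither end was kept for 20 of the 72 post-LBC type 1 domains of Z (27.8%), against 4 of 171 (2.34%) on chromosomes 4 and 5. Both ends were kept for 18 (25.0%) on Z, against 108 (63.2%) on chromosomes 4 and 5. These counts were not made over all chromosomes. Chromosomes 4 and 5 were a high background in this direction, with 80.9% of single boundaries kept against 75.3% over all chromosomes. The Z domains with no kept end were not short, with a median of 1112 kb against 1064 kb for those with both ends kept.

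Post-LBC domains that held the middles of at least 2 LBC domains of the same type numbered 21 of 72 on Z in type 1 (29.2%, 19.9 to 40.5), against 64 of 171 (37.4%, 30.5 to 44.9) on chromosomes 4 and 5 and 392 of 1132 (34.6%) over all chromosomes. In type 2 they numbered 25 of 85 on Z (29.4%, 20.8 to 39.8), against 49 of 220 (22.3%, 17.3 to 28.2) on chromosomes 4 and 5 and 344 of 1342 (25.6%) over all chromosomes. The intervals of Z and of chromosomes 4 and 5 overlapped in both types. Under the stricter rule that at least 80% of the length of each LBC domain lie inside, the type 1 number was 10 on Z (13.9%, 7.72 to 23.7), against 53 (31.0%, 24.5 to 38.3) on chromosomes 4 and 5 and 26.5% over all chromosomes, and the intervals of Z and of chromosomes 4 and 5 did not overlap. In type 2 it was 8 on Z (9.41%, 4.85 to 17.5), against 21 (9.55%, 6.33 to 14.2) on chromosomes 4 and 5, so that the higher share on Z was not seen under this rule. No Z domain of either type held 3 LBC domains by it.

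The post-LBC type 1 domain that held most LBC middles was chrZ:28576001-29632000, 1056 kb long and next to a gap found in all maps. It held the middles of LBC type 1 domains of 240, 416 and 784 kb. The third of these, chrZ:29216001-30000000, reached beyond its end. The neighbouring post-LBC type 1 domains chrZ:14320001-16016000 (1696 kb) and chrZ:16016001-17824000 (1808 kb) each held 2, of 656 and 1328 kb and of 1104 and 736 kb. The other 2 of the 5 named by the rule were chrZ:72576001-74288000 (1712 kb, holding 880 and 976 kb) and chrZ:56560001-58112000 (1552 kb, holding 992 and 496 kb). Both ends of the last of these had a boundary within 80 kb in all maps.

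In type 2, 3 post-LBC domains held 3 LBC middles, and in each case the held domains together were longer than the post-LBC domain and reached beyond it. These were chrZ:16736001-18656000 (1920 kb, with the middles of LBC domains of 496, 544 and 1072 kb), chrZ:47360001-49168000 (1808 kb, with those of 688, 816 and 816 kb) and chrZ:22400001-24000000 (1600 kb, with those of 672, 592 and 720 kb). Next came chrZ:19744001-21408000 (1664 kb, with those of 608 and 752 kb) and chrZ:52272001-53872000 (1600 kb, with those of 784 and 848 kb). In both types a domain of this kind covered position 16736001 of Z, the start of the type 2 domain, though with different ends. Whether such domains overlap between types more than their number and length would give was not tested.

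A list of LBC type 1 domains that the authors had refined by eye held 46 domains on Z, with a median of 1512 kb, and served as an alternative. Of its 59 Z boundaries, 51 (86.4%, 75.5 to 93.0) lay within 80 kb of an automatic LBC type 1 boundary, against 145 of 167 (86.8%) on chromosomes 4 and 5. In the post-LBC type 1 map, 31 of the 59 (52.5%, 40.04 to 64.7) were kept on Z, against 151 of 167 (90.4%, 85.0 to 94.0) on chromosomes 4 and 5. In the LBC type 2 map it was 34 of 59 on Z (57.6%) and 95 of 167 on chromosomes 4 and 5 (56.9%). As with the automatic list, the share was lower on Z in the post-LBC type 1 map, and the shares in the LBC type 2 map were close. Both lists come from the same pooled map and share most boundaries, so this is not separate support. The refined shares were set here only against chromosomes 4 and 5. Of the 60 automatic LBC type 1 boundaries lost on Z, 20 (33.3%, 22.7 to 45.9) were in the refined list, against 7 of 117 (5.98%, 2.93 to 11.8) on chromosomes 4 and 5. Over all chromosomes it was 148 of 771 (19.2%, 16.6 to 22.1), so that chromosomes 4 and 5 were low in this respect.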

How the data were processed

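Single-nucleus Hi-C reads of 25 chicken oocytes had been processed by the authors. Per the study's methods, adapters were trimmed with cutadapt 4.1, reads were aligned to ASM2420605v2 and paired with juicer 1.5.6, pairs with mapping quality of at least 30 were stored with cooler 0.10.2 without balancing, and domains were segmented with lavaburst 0.2.0. The resolution parameter used for the pooled maps is not given in the sources used here. The deposited values are domain start and end positions in base pairs (no score, count or signal), 1 list per pooled map. For single oocytes, the study chose this parameter to bring the mean domain length near a target. Whether the same was done for the pooled maps is not stated. The lengths and numbers of domains depend on the setting used. Ratios between maps and the shares of boundaries kept, lost or gained may depend on it too, which was not tested.

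From these positions, lengths, medians, boundary distances and shares were computed with Python (numpy, scipy). Both ends of each domain were boundaries, and an edge shared by abutting domains was counted once. Starts are given 1-based. Regions were named by rule: in each map the longest, shortest, first and last Z domain, the windows with extreme medians, domains with both ends in all maps, up to 5 post-LBC domains per type that held most LBC middles, and the 3 longest stretches without a common boundary or a domain. Matching and interval functions were checked on simulated data. The chromosome, the tolerance and these rules were chosen with earlier results of these data known. No genome of this assembly was used, so sequence, base composition and genes of Z domains were not analysed here.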

Additional observations from a re-analysis of the deposited data

Results flagged for a closer look

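In 3 of the 9 windows of Z, the median length moved in opposite directions between stages in the 2 types. The ratio of the post-LBC to the LBC median was 1.24 in type 1 and 0.872 in type 2 for window 1, and 1.22 in type 1 and 0.917 in type 2 for window 4. For window 5 it was 0.778 in type 1 and 1.24 in type 2. Each of these medians rests on 8 to 14 domains, and the difference between types was not tested, since each type has 1 map per stage.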

How the results depend on the processing

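No paired analysis was possible because each group is 1 pooled map; leaving out a nucleus could not be run for the same reason. As N50, the length for which longer domains hold 50% of the covered bases, Z measured 1216 kb in the post-LBC type 1 map, 1024 kb in LBC type 1, 1040 kb in post-LBC type 2 and 768 kb in LBC type 2. With the refined list the LBC type 1 median was 1512 kb and the post-LBC to LBC ratio 0.704, the reverse of the automatic lists. No refined post-LBC list was used, so this ratio mixes 2 ways of listing domains. Chromosomes 4 and 5 showed the same order, and why the lists differ in length was not tested. The ratio of Z to autosomal medians stayed above 1 under all 6 alternatives in each map. With 5 Mb windows the highest-to-lowest ratio of window medians was 1.87, 2.50, 2.30 and 1.78 in the post-LBC type 1, LBC type 1, post-LBC type 2 and LBC type 2 maps.

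At a tolerance of 0 kb, the share of Z boundaries kept was 31.4% for post-LBC type 1 in LBC type 1, 25.2% for LBC type 1 in post-LBC type 1, 11.5% for post-LBC type 2 in LBC type 2, 11.1% for LBC type 2 in post-LBC type 2, 17.4% for post-LBC type 1 in post-LBC type 2, 13.3% for the reverse, 28.0% for LBC type 1 in LBC type 2 and 25.6% for the reverse. At 16 kb these 8 shares were, in that order, 40.7%, 31.8%, 20.4%, 17.9%, 25.6%, 18.6%, 33.6% and 30.8%. At 40 kb post-LBC type 2 in LBC type 2 gave 24.8%, and the last 4 gave 32.6%, 25.7%, 41.1% and 37.6%. At 160 kb the 2 type 2 stage directions gave 53.1% and 45.3%, and the last 4 gave 60.5%, 50.4%, 70.1% and 62.4%. Without boundaries at a gap or at the ends, the 4 stage directions gave 37.9%, 30.7%, 17.5% and 17.6%, and LBC type 2 in LBC type 1 gave 40.7%. With the refined list, post-LBC type 1 in LBC type 1 gave 37.2% and LBC type 2 in LBC type 1 gave 29.1%.

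Z minus chromosomes 4 and 5 was below 0 in type 1 at all 9 settings in both directions, from -41.9 to -10.1 percentage points for post-LBC in LBC and from -37.9 to -3.45 for LBC in post-LBC; the values were -10.1 at 0 kb, -41.9 and -23.0 without boundaries at a gap or at the ends, and -37.9 with the refined list for LBC in post-LBC. In type 2 it was -21.5 without boundaries at a gap or at the ends for post-LBC in LBC, and it turned to 1.63 for post-LBC in LBC and 2.22 for LBC in post-LBC at 0 kb, where 13 boundaries of Z matched in each direction.

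Z boundaries found in all 4 maps numbered 7 at 0 kb and 12 at 16 kb. Without the post-LBC type 2 map, an alternative chosen after seeing the data, 33 were found in the other 3 maps. Post-LBC domains that held at least 80% of the length of 2 or more LBC domains numbered 10 on Z in type 1 (13.9%, against 31.0% on chromosomes 4 and 5) and 8 in type 2 (9.41%, against 9.55%). The lists hold no contact numbers, so the part of depth in these values was not tested.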
